A study of Mus musculus with 6 samples.

Results

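The genes of the natriuretic peptide system and of the myocardial response to wall stress were examined in hearts of mouse embryos with and without the mitochondrial ribosomal protein gene Mrps5 in cardiomyocytes. The 9 genes were Nppa, Nppb, Npr1, Npr2, Npr3, Corin, Ankrd1, Xirp1 and Xirp2. They were taken from the table by their symbols, and all 9 were listed among the 26191 genes of the deposited table. Hearts were taken at embryonic day 12, and each library was made from a pool of hearts. The 3 Ctrl libraries came from Mrps5 fl/fl embryos, in which both alleles are floxed and intact, and the 3 cKO libraries from Mrps5 fl/fl; cTNT-Cre embryos. Both groups came from 1 cross of Mrps5 fl/+; cTNT-Cre with Mrps5 fl/fl mice. The cTNT-Cre transgene expresses Cre recombinase under the promoter of the cardiac troponin T gene, so that the deletion is restricted to cardiomyocytes. Other cell types of the heart keep both floxed alleles, and because Ctrl embryos carried no Cre, an effect of the transgene and an effect of the deletion cannot be told apart.

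Nppa and Nppb encode the atrial and the brain natriuretic peptide, hormones that cardiomyocytes secrete when the wall is stretched. Corin is the membrane protease that cuts the precursor of the atrial peptide into its active form. Npr1 binds both peptides and Npr2 binds the C-type peptide, and both receptors are guanylyl cyclases that make cyclic GMP. Npr3 has no cyclase domain and clears the peptides from the circulation. In the embryonic heart Nppa marks the atria and the trabeculae, the inner muscle ridges of the ventricles. Ankrd1 encodes a stretch-responsive ankyrin repeat protein that binds titin and also acts in the nucleus. Xirp1 and Xirp2 encode Xin proteins, which bind actin and sit at the intercalated discs that join cardiomyocytes.

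The files give FPKM, fragment counts scaled by transcript length and library size, so levels can be compared between genes. Rows of the table are transcripts, and the rows of a gene were summed. The files do not give read counts, and the depth of each library is unknown. FPKM summed to 454692 to 515952 per library. Mrps5 itself was at 9.65, 11.4 and 10.4 FPKM in Ctrl replicates 1, 2 and 3, at 5.28 and 7.41 in cKO replicates 1 and 2, and at 10.4 in the library labelled cKO replicate 3, within the Ctrl range. For the natriuretic and wall-stress genes tested, the value without that library is therefore given as well. Tnnt2, the gene whose promoter drives Cre, was at 948 to 1044 FPKM in Ctrl and at 617 to 683 in cKO. All 10 cardiomyocyte markers examined were detected, and their summed FPKM was 4468 to 5097 in Ctrl and 3538 to 4146 in cKO hearts. In bulk samples, fewer cells of a type and less RNA per cell cannot be told apart. The share of erythroid genes in the summed FPKM was 12.3%, 13.3% and 12.0% for Ctrl replicates 1, 2 and 3, and 23.5%, 10.8% and 22.0% for cKO replicates 1, 2 and 3.

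Both peptide genes were higher in cKO hearts on average, Nppb more so than Nppa, and both were highest in cKO replicates 1 and 2. Nppb (ENSMUSG00000029019) had an FPKM of 95.2, 111 and 91.5 in Ctrl replicates 1, 2 and 3, and of 337, 384 and 146 in cKO replicates 1, 2 and 3. All 3 cKO values lay above all Ctrl values, at 3.40, 3.87 and 1.47 times the Ctrl mean. The means were 99.2 ± 10.3 FPKM (SD, n = 3) in Ctrl and 289 ± 126 FPKM (SD, n = 3) in cKO. Values were put on the log2(FPKM + 1) scale, which shrinks differences of weakly expressed genes, and the groups were compared with limma. A gene entered the test if 3 or more of the 6 libraries had at least 1 FPKM, which left 13260 genes. The log2 fold change of Nppb was 1.42 (standard error 0.32, 95% interval 0.69 to 2.15), with an unadjusted limma p of 0.00195 and a p of 0.141 after Benjamini-Hochberg adjustment over all genes tested. Only 0.234% of the genes tested had a higher log2 fold change than Nppb.

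Nppa (ENSMUSG00000041616) had an FPKM of 751, 620 and 793 in Ctrl replicates 1, 2 and 3, and of 1397, 1463 and 781 in cKO replicates 1, 2 and 3. The groups overlapped, since cKO replicate 3 lay within the Ctrl range while cKO replicates 1 and 2 were at 1.94 and 2.03 times the Ctrl mean. The means were 722 ± 90.1 FPKM (SD, n = 3) in Ctrl and 1214 ± 376 FPKM (SD, n = 3) in cKO. The log2 fold change of Nppa was 0.70 (standard error 0.24, 95% interval 0.16 to 1.25), with an unadjusted p of 0.0179 and an adjusted p of 0.240 from limma. Without the library labelled cKO replicate 3 it was 0.99 for Nppa (adjusted p = 0.0157 from limma) and 1.85 for Nppb (adjusted p = 0.000308). Without cKO replicate 2 it was 0.54 for Nppa and 1.16 for Nppb, and the unadjusted p of Nppa was over 0.05 without Ctrl replicate 2, cKO replicate 1 or cKO replicate 2. The replicates that set these means, cKO 1 and 2, had the highest and the lowest erythroid share of all libraries. A fit with a covariate used not that share but the mean log2(FPKM + 1) of the erythroid genes in each library. With this erythroid covariate the log2 fold changes were 0.96 for Nppa and 1.79 for Nppb.

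**Figure D1:**
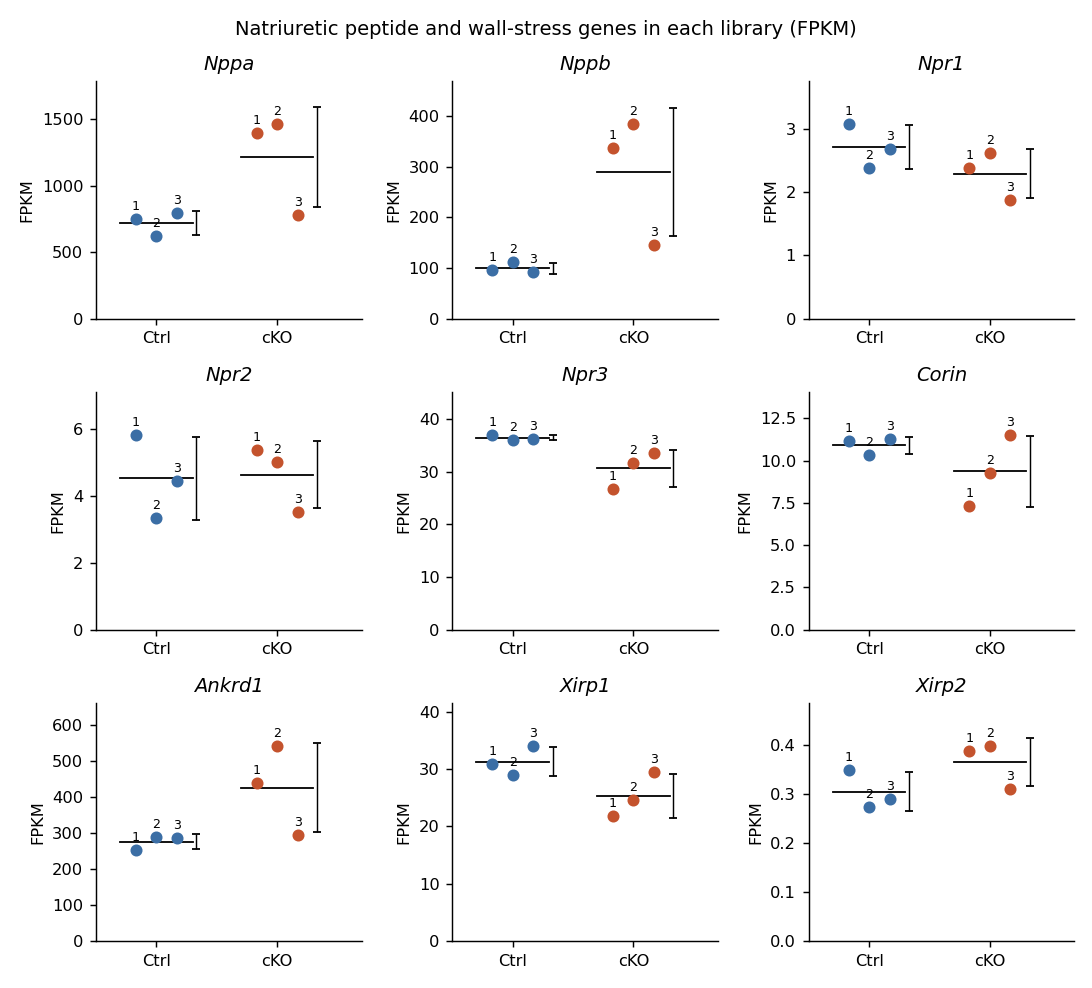
Level of each of the 9 genes in each library, with FPKM on a linear axis that starts at 0 (a separate scale in each panel). Points are libraries with their replicate number, blue for Ctrl and orange for cKO, the horizontal line is the mean of 3 libraries and the bar beside it spans 1 SD to either side. Nppb, Ankrd1 and Npr3 show no overlap between the groups, and Nppa is above its Ctrl range in cKO replicates 1 and 2 only.

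Within each library the balance of the peptide mRNAs was also read as the ratio of Nppa to Nppb, which the scaling of a library hardly touches. This FPKM ratio was 7.89, 5.59 and 8.67 in Ctrl replicates 1, 2 and 3, and 4.14, 3.81 and 5.36 in cKO replicates 1, 2 and 3. Each cKO library, the library labelled cKO replicate 3 included, had a lower ratio than any Ctrl library. The mean ratio was 7.38 ± 1.60 (SD, n = 3) in Ctrl and 4.44 ± 0.818 (SD, n = 3) in cKO. The difference of the log2 ratios of FPKM + 1 was -0.72, with p = 0.1 by a two-sided exact permutation test, the smallest p that 3 against 3 libraries allow, and 0.2 after Benjamini-Hochberg adjustment over the 4 ratios compared.

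The start regions of the genes were searched for short motifs known from natriuretic peptide gene promoters. RefSeq windows of 250 bases before the annotated start were found for 8 of the 9 genes, Xirp1 having none, in build GRCm38.p6. The motifs, searched on both strands, were GATAA (GATA factors), CATTCC (MCAT, bound by TEAD factors), GGTGTGA (T-box) and AAGTG (NKX2-5). The Nppa window, chr4:148000472-148000721 on the plus strand, is printed 5′ to 3′ because it held the most matches, 5, which are in capitals.
Nppa: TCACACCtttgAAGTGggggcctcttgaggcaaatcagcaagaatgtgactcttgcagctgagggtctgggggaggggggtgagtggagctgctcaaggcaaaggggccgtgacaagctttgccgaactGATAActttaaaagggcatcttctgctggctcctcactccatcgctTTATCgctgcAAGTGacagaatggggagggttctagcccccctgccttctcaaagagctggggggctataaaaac
Counting back from the start, the T-box match lay at -250 to -244, the NKX matches at -239 to -235 and at -65 to -61, and the GATA matches at -121 to -117 and at -75 to -71. No MCAT match was found there.

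The Nppb and Ankrd1 windows both held MCAT matches, and only the stretches that carry them are shown. The reason is that these lie in the 5′ UTR of a GENCODE transcript that starts further upstream than the start used for the window. For Nppb the RefSeq gene also starts further upstream, at chr4:147985786. The Nppb stretch, chr4:147985795-147985821 on the plus strand, covers positions -105 to -79 and carries an MCAT match and 2 GATA matches. The Ankrd1 stretches on the minus strand are chr19:36120037-36120066, positions -222 to -193, and chr19:36119950-36119979, positions -135 to -106. Capitals mark the matches.
Nppb: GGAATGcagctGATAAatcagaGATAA
Ankrd1 distal: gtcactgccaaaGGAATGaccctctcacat
Ankrd1 proximal: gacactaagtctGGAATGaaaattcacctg
The Ankrd1 window also held a T-box and a GATA match. A match is a string of letters, not a bound site. GATA matches were found in 3 of the 8 windows and in 22.6% of the 32851 windows of all genes, MCAT matches in 2 and in 12.6%, T-box matches in 3 and in 3.33%, and NKX matches in 2 and in 40.7%. Besides these 3 genes only Xirp2 held matches, 2 of them. The windows of Npr1, Npr2, Npr3 and Corin held none of these letters.

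The receptors were expressed at very different levels, and none differed between the groups at an adjusted p under 0.05. The clearance receptor Npr3 (ENSMUSG00000022206), which endocardial cells are known to express, was the most abundant receptor. Its FPKM was 37.0, 36.0 and 36.3 in Ctrl replicates 1, 2 and 3, and 26.7, 31.7 and 33.5 in cKO replicates 1, 2 and 3. Every cKO value was below every Ctrl value. The means were 36.4 ± 0.483 FPKM (SD, n = 3) and 30.6 ± 3.51 FPKM (SD, n = 3). This gave -0.25 as log2 fold change (standard error 0.10, 95% interval -0.47 to -0.025), with an unadjusted p of 0.0331 and an adjusted p of 0.294 from limma. The summed FPKM of the 4 endocardial markers was 87.2 to 107 in Ctrl and 86.9 to 128 in cKO hearts, with Hapln1 the most abundant in each library, and Cytl1 was under 1 FPKM in every library. Plvap, another of the 4, was at 35.3 to 39.0 FPKM in Ctrl and 28.0 to 34.8 in cKO, lower in each cKO library than in any Ctrl library, as Npr3 was, while the groups overlapped for Hapln1 (log2 fold change 0.29) and Nfatc1 (-0.019). The part of endocardial cells in the Npr3 values was not tested. With 1 library left out the change of Npr3 ran on the log2 scale from -0.16 without cKO replicate 1 (unadjusted p = 0.105 from limma) to -0.31 without the library labelled cKO replicate 3, and the unadjusted p was also over 0.05 without any 1 of the Ctrl libraries.

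Npr1 (ENSMUSG00000027931), the receptor for both cardiac peptides, was the least abundant receptor, low but above 1 FPKM in every library. It had an FPKM of 3.08, 2.38 and 2.68 in Ctrl replicates 1, 2 and 3 and of 2.38, 2.62 and 1.87 in cKO replicates 1, 2 and 3. The groups overlapped. The log2 fold change of Npr1 was -0.18 (standard error 0.13, 95% interval -0.49 to 0.13), with an adjusted p of 0.577 from limma, and it was -0.11 without Ctrl replicate 1 and -0.082 without the library labelled cKO replicate 3. The ratio of Npr1 to Npr3 differed by 0.071 on the log2 scale (p = 0.7 by the two-sided exact permutation test), by -0.044 without cKO replicate 1, and by 0.0043 without the added 1.

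Npr2 (ENSMUSG00000028469) had an FPKM of 5.82, 3.34 and 4.43 in Ctrl replicates 1, 2 and 3, and of 5.38, 5.02 and 3.51 in cKO replicates 1, 2 and 3. The groups overlapped fully as gene totals, with means of 4.53 ± 1.24 FPKM (SD, n = 3) and 4.64 ± 0.989 FPKM (SD, n = 3). The log2 fold change of Npr2 was 0.036 (standard error 0.19, 95% interval -0.40 to 0.47), with an adjusted p of 0.952 from limma, and it took the other sign without Ctrl replicate 2, cKO replicate 1 or cKO replicate 2. Without the library labelled cKO replicate 3 it was 0.19. Of its 4 transcript rows, 2 differed more than the total. The row ENSMUST00000107874 had 2.24, 1.92 and 2.70 FPKM in Ctrl replicates 1, 2 and 3, was listed at 0 in cKO replicates 1 and 2, and had 1.68 FPKM in cKO replicate 3. The row ENSMUST00000030191 had 2.27, 1.00 and 1.33 FPKM in Ctrl replicates 1, 2 and 3, and 4.57, 4.30 and 1.35 in cKO replicates 1, 2 and 3. It thus held 39.0%, 30.0% and 30.1% of the gene's FPKM in the Ctrl libraries, 84.9% and 85.8% in cKO replicates 1 and 2, and 38.3% in cKO replicate 3. That row had the higher mean over all 6 libraries, with its highest values in cKO replicates 1 and 2, while ENSMUST00000107874 was higher in Ctrl replicates 2 and 3 and in cKO replicate 3. For ENSMUST00000030191 alone, picked by that mean, the log2 fold change was 0.73, given as a description.

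In GENCODE the transcript ENSMUST00000107874 has 21 exons and ENSMUST00000030191 has 22, and ENSMUST00000030191 also has 250 bases at its 5′ end that ENSMUST00000107874 lacks. The 70 bases at chr4:43650324-43650393 (GRCm38, plus strand) are an intron of ENSMUST00000030191 and are kept in ENSMUST00000107874. They are shown because they are the stretch by which the 2 rows differ inside the gene, with the 70 bases in capitals and 15 exon bases to either side in lower case.
Npr2: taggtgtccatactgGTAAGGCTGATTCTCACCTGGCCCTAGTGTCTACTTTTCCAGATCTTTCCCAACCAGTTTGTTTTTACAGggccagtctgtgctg
A transcript row is the authors' estimate of how reads are split between overlapping transcripts, and a row listed at 0 can be a failed estimate. The shift between rows was seen in cKO replicates 1 and 2 and was not tested.

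**Figure D2:**
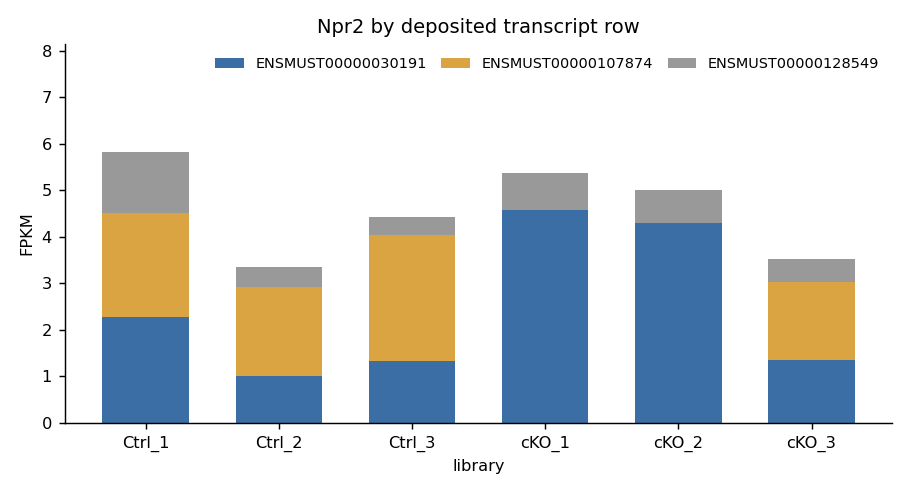
FPKM of Npr2 in each library, as stacked bars from 0 of its 3 transcript rows with values above 0. ENSMUST00000107874 is listed at 0 in cKO replicates 1 and 2, where ENSMUST00000030191 makes up 84.9% and 85.8% of the gene, while the totals of the groups overlap.

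Corin (ENSMUSG00000005220), which activates the atrial peptide, had an FPKM of 11.1, 10.3 and 11.2 in Ctrl replicates 1, 2 and 3, and of 7.32, 9.28 and 11.5 in cKO replicates 1, 2 and 3. It was below the Ctrl range in cKO replicates 1 and 2 and at its highest of all libraries in cKO replicate 3. The means were 10.9 ± 0.504 FPKM (SD, n = 3) and 9.37 ± 2.09 FPKM (SD, n = 3). This gave -0.22 as log2 fold change (standard error 0.14, 95% interval -0.55 to 0.11), with an adjusted p of 0.515 from limma. Leaving out 1 library moved it to between -0.069 without cKO replicate 1 and -0.36 without the library labelled cKO replicate 3. The ratio of Nppa to Corin, the substrate's mRNA to the protease's, was 67.4, 60.1 and 70.5 in Ctrl replicates 1, 2 and 3, and 191, 158 and 67.9 in cKO replicates 1, 2 and 3. It was over the Ctrl range in cKO replicates 1 and 2 and within it in cKO replicate 3, a log2 difference of 0.92 with p = 0.2 by the two-sided exact permutation test and 0.267 adjusted over the 4 ratios.

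The wall-stress genes differed from each other in direction. Ankrd1 (ENSMUSG00000024803) followed the peptides, with an FPKM of 252, 290.1 and 286 in Ctrl replicates 1, 2 and 3, and of 439, 541 and 295 in cKO replicates 1, 2 and 3. All cKO values were above all Ctrl values, cKO replicate 3 only just, at 1.07 times the Ctrl mean against 1.59 and 1.96 times in cKO replicates 1 and 2. The means were 276 ± 21.1 FPKM (SD, n = 3) and 425 ± 124 FPKM (SD, n = 3). The log2 fold change of Ankrd1 was 0.58 (standard error 0.20, 95% interval 0.12 to 1.04), with an unadjusted p of 0.0201 and an adjusted p of 0.251 from limma, and it was 0.82 (adjusted p = 0.0235) without the library labelled cKO replicate 3. It was 0.38 without cKO replicate 2, and the unadjusted p was over 0.05 without Ctrl replicate 1, cKO replicate 1 or cKO replicate 2.

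Xirp1 (ENSMUSG00000079243) was lower on average. It had an FPKM of 30.9, 28.9 and 34.0 in Ctrl replicates 1, 2 and 3, and of 21.8, 24.7 and 29.5 in cKO replicates 1, 2 and 3. The groups overlapped because cKO replicate 3 was above Ctrl replicate 2. The means were 31.3 ± 2.55 FPKM (SD, n = 3) and 25.3 ± 3.89 FPKM (SD, n = 3). This gave -0.30 as log2 fold change (standard error 0.12, 95% interval -0.58 to -0.028), with an unadjusted p of 0.0345 and an adjusted p of 0.297 from limma. It ran from -0.20 without cKO replicate 1 (unadjusted p = 0.118 from limma) to -0.41 without the library labelled cKO replicate 3, and the unadjusted p was also over 0.05 without Ctrl replicate 1, Ctrl replicate 3 or cKO replicate 2.

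Xirp2 (ENSMUSG00000027022), the related Xin gene, was hardly expressed at this stage. Its FPKM was 0.350, 0.274 and 0.291 in Ctrl replicates 1, 2 and 3, and 0.389, 0.398 and 0.310 in cKO replicates 1, 2 and 3. It did not reach 1 FPKM in any library and so was not among the genes tested. In a fit of the 22153 genes with a value above 0 in at least 1 library its log2 fold change was 0.065 (95% interval -0.067 to 0.20), with an adjusted p of 0.655 from limma. The ratio of Xirp1 to Xirp2 was 88.2, 106 and 117 in Ctrl replicates 1, 2 and 3, and 56.0, 61.9 and 95.1 in cKO replicates 1, 2 and 3. The Xin ratios overlapped, since cKO replicate 3 lay above Ctrl replicate 1. On the log2(FPKM + 1) scale the ratio differed by -0.37 (p = 0.1 by the two-sided exact permutation test, 0.2 adjusted over the 4 ratios), and without the added 1 by -0.57 (exact p = 0.2).

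The order of the 9 levels was the same in all 6 libraries: Nppa, Ankrd1, Nppb, Npr3, Xirp1, Corin, Npr2, Npr1 and Xirp2, from high to low. By mean Ctrl FPKM, Nppa ranked 55 and Ankrd1 205 of the 26191 genes, while Npr1 ranked 10993 and Xirp2 16269. Nppb ranked 506, Npr3 1577, Xirp1 1898, Corin 5863 and Npr2 9410. Neighbours in this order were close in the middle of it. Npr3 and Xirp1 did not overlap in the Ctrl libraries (36.0 to 37.0 against 28.9 to 34.0 FPKM), but across the cKO libraries they did (26.7 to 33.5 against 21.8 to 29.5 FPKM). Ankrd1 and Nppb were likewise separate in the Ctrl libraries (252 to 290.1 against 91.5 to 111 FPKM) and overlapped across the cKO libraries (295 to 541 against 146 to 384 FPKM).

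Of the 8 genes tested, 5 had an unadjusted p under 0.05, which 15.0% of all genes tested also had. Nppa, Nppb and Ankrd1 were the 3 higher ones, against 5.57% of all genes, and Npr3 and Xirp1 the 2 lower ones, against 9.43%. None of the 8 had an adjusted p under 0.05 in limma, a limit that 0.0830% of all genes passed. In 3 genes, Nppb and Ankrd1 higher and Npr3 lower, the groups did not overlap, as in 20.8% of all genes (7.74% higher and 13.0% lower). The median log2 fold change of the 8 was -0.071, beside -0.021 over all genes tested. The higher calls made up 37.1% of all calls at an unadjusted p under 0.05 as deposited, and 49.8% after scaling by median ratios. Under that scaling Npr3 (-0.21) and Xirp1 (-0.27) kept their sign and passed 0.05 no longer, with unadjusted p of 0.0626 and 0.0708 from limma. With the erythroid covariate Npr3 (-0.21) and Xirp1 (-0.31) did not pass either, with unadjusted p of 0.131 and 0.0913 from limma. After quantile normalization Nppa (0.63) and Ankrd1 (0.46) were the ones that did not pass, with unadjusted p of 0.0686 and 0.08845 from limma.

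**Figure D3:**
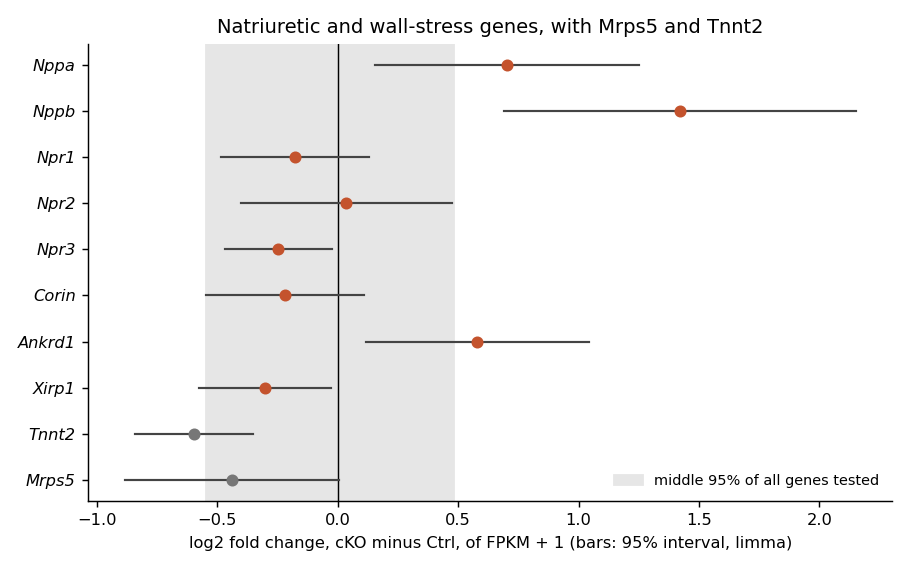
Log2 fold change of FPKM + 1, cKO minus Ctrl, of the 8 genes tested (orange) and of Tnnt2 and Mrps5 (grey). Lines are 95% intervals from limma on 3 against 3 libraries, and the grey band, -0.55 to 0.48, holds the middle 95% of all genes tested. Nppb, Nppa and Ankrd1 lie above the band, and the other 5 genes lie inside it.

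Without the library labelled cKO replicate 3, 3 of the 8 genes had an adjusted p under 0.05 in limma, Nppa, Nppb and Ankrd1, where 2.04% of all genes did. In that fit 6 genes did not overlap, the 3 higher ones and Npr3, Corin and Xirp1 below, against 32.5% of all genes. With only 2 cKO libraries these values rest on cKO replicates 1 and 2. When the mean level of the 10 cardiomyocyte markers was subtracted from every library, the median of all genes moved to 0.29. Nppa (1.02), Nppb (1.73) and Ankrd1 (0.89) were above that median, with adjusted p of 0.0380, 0.0120 and 0.0405 from limma. In that fit 6.64% of all genes passed the adjusted limit, and the p refers to a difference from 0, not from the shifted median. Npr3 (0.065), Corin (0.094), Xirp1 (0.010) and Npr1 (0.14) were below that median and changed sign. The part of the cardiomyocyte marker level in these values was not tested.

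**Figure D4:**
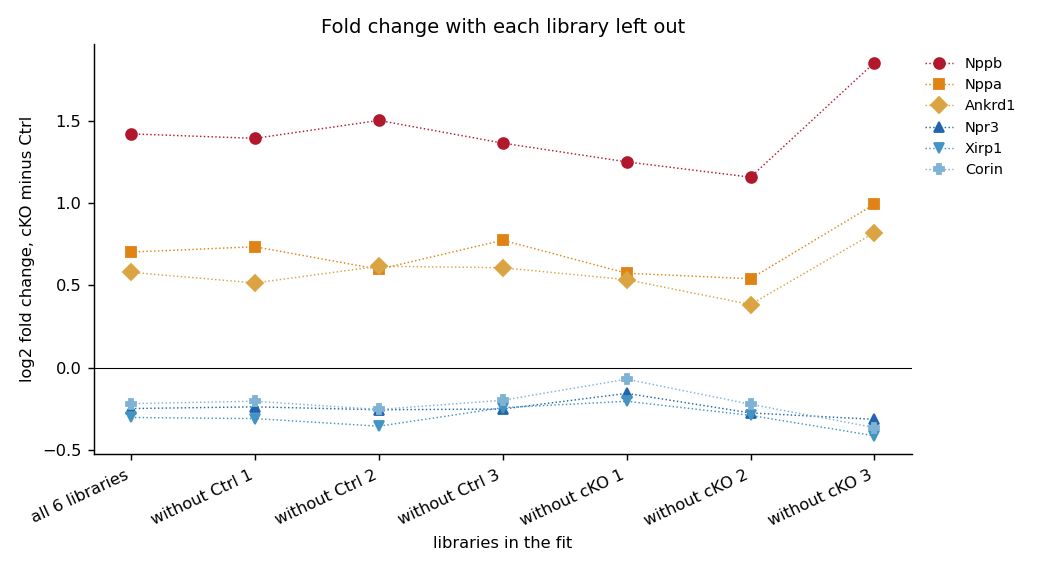
Log2 fold change of 6 genes, cKO minus Ctrl, with all 6 libraries and with each library left out in turn. Dotted lines only join the points of a gene. Nppb runs from 1.16 to 1.85, Nppa from 0.54 to 0.99 and Ankrd1 from 0.38 to 0.82, each highest without the library labelled cKO replicate 3, and Npr3, Xirp1 and Corin stay below 0.

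Other genes of the pathway and its setting were taken from lists, and of each list the genes with the smallest p are named. In none of these lists did a gene have an adjusted p under 0.05. Over all genes tested, 5.57% were higher and 9.43% lower at an unadjusted p under 0.05, the shares beside which each list's counts stand. The 10 cardiomyocyte markers all had negative log2 fold changes, with 0 higher, 6 lower and a median of -0.31. Among 17 tested genes of peptide processing, clearance and cyclic GMP signalling, 1 was higher and 5 lower at an unadjusted p under 0.05, or 35.3% beside 15.0% of all genes, with a median log2 fold change of -0.12. The higher gene was Vasp (0.25, from 36.6 ± 0.396 to 43.6 ± 2.80 FPKM), an actin regulator phosphorylated by cyclic GMP-dependent kinase. The lower ones included the cyclic nucleotide phosphodiesterase genes Pde3a (-0.31, from 7.65 ± 0.126 to 5.97 ± 0.516 FPKM) and Pde1c (-0.42) and the soluble guanylyl cyclase subunit gene Gucy1a2 (-0.32, from 6.86 ± 0.696 to 5.30 ± 0.118 FPKM). Nppc, which encodes the C-type ligand of Npr2, did not pass the filter on low values.

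Among 24 transcription factors and cofactors known to act on the Nppa and Nppb promoters, 0 were higher and 5 lower at an unadjusted p under 0.05, or 20.8% beside 15.0% of all genes, with a median of -0.12. Hdac9, a histone deacetylase that represses cardiac stress genes, had the smallest p of the list, at 12.6, 11.5 and 13.3 FPKM in Ctrl replicates 1, 2 and 3 and 5.51, 6.38 and 8.84 in cKO replicates 1, 2 and 3. All cKO values were below all Ctrl values, with a log2 fold change of -0.79 (unadjusted p = 0.000721, adjusted p = 0.106 from limma). Myocd, a coactivator of serum response factor, differed by -0.49 and the repressor gene Hey2 by -0.41. Hand2 differed by -0.23.

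The 27 tested genes of the fetal and stress-induced programme of the heart were divided, with 4 higher and 4 lower at an unadjusted p under 0.05, or 29.6% beside 15.0% of all genes, and a median of -0.038. Myc was higher (0.58, from 9.995 ± 2.12 to 15.3 ± 1.67 FPKM, adjusted p = 0.159 from limma), while Fhl2 (-0.46), Trim55 (-0.30) and the fetal ventricular myosin gene Myh7 (-0.35) were lower. Myh7 was at 893, 779 and 978 FPKM in Ctrl replicates 1, 2 and 3 and at 682, 681 and 709 in cKO replicates 1, 2 and 3. It was thus lower in each cKO library than in any Ctrl library, where Nppb was higher in each.

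Partners of Ankrd1 and the Xin proteins in titin, the Z-disc and the intercalated disc were on the low side. Of 25 tested, 0 were higher and 10 lower at an unadjusted p under 0.05, beside 9.43% of all genes lower, with a median of -0.23. The median of the general cardiomyocyte markers was lower still, at -0.31, and its part in this list was not tested. Ttn and Actn2 are in both lists. Mypn, which binds Ankrd1 at titin, was at 2.93 ± 0.502 FPKM in Ctrl and 1.46 ± 0.610 in cKO (log2 fold change -0.70). The titin cap gene Tcap was at 26.2 ± 3.08 and 14.7 ± 4.30 FPKM (-0.82), Nrap at 9.30 ± 1.98 and 5.62 ± 0.449 FPKM (-0.62), and the alpha-T-catenin gene Ctnna3 at 14.1 ± 2.25 and 8.22 ± 1.11 FPKM (-0.70). The adjusted p of these 4 genes ran from 0.106 to 0.171 in limma.

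Markers of the chamber regions in which the peptides are known to be made mostly had lower values in cKO hearts, unlike Nppa, as did the general cardiomyocyte markers, whose part in these lists was not tested. Of 10 trabecular genes, 1 was higher and 5 lower at an unadjusted p under 0.05, beside 5.57% and 9.43% of all genes, with a median of -0.44. The higher one, Bmp10, a growth factor of the trabeculae, was at 19.9, 20.9 and 23.0 FPKM in Ctrl replicates 1, 2 and 3 and at 40.6, 54.3 and 29.2 in cKO replicates 1, 2 and 3. Its groups did not overlap (log2 fold change 0.89, adjusted p = 0.139 from limma). Cited1 was at 96.0, 71.3 and 99.2 FPKM in Ctrl replicates 1, 2 and 3 and at 34.3, 32.6 and 77.2 in cKO replicates 1, 2 and 3 (-0.97, adjusted p = 0.214). Smpx (-0.82) and Slit2 (-0.62) were lower in each cKO library than in any Ctrl library. Of 8 atrial genes, 3 were lower and 0 higher, and the median was -0.27, the 4 of smallest p being Sln (-0.63), Nr2f1 (-0.48), Myl4 (-0.31) and Stard10 (-0.33). All 6 ventricular genes, with a median of -0.43, had an unadjusted p under 0.05, among them Pln (-0.64), Irx4 (-0.58), Hey2 and Mpped2 (-0.36). All 6 were lower in each cKO library than in any Ctrl library, as were 13.0% of all genes. Myl3, 1 of the 6, is also 1 of the general cardiomyocyte markers. Of 3 compact-wall genes Hey2 was lower, while Prdm16 (-0.19) and Mycn (0.027) had an adjusted p of 0.557 and 0.922. Over all lists, each gene counted once, the tested genes numbered 125, of which 8 were higher and 37 lower, 36.0% together beside 15.0% of all genes, and the median was -0.15. With the cardiomyocyte marker level subtracted the counts were 30 higher and 7 lower, and of all genes 39.0% were higher and 0.762% lower in that fit. The lists share Ttn, Actn2, Myl3, Myh6 and Nkx2-5 with the markers whose level was subtracted. With the erythroid covariate the counts were 12 and 22, beside 5.62% and 5.32% of all genes. Without the library labelled cKO replicate 3 they were 13 and 45, beside 6.42% and 8.82% of all genes. Without that library no gene named from the lists by its p took the other sign.

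**Figure D5:**
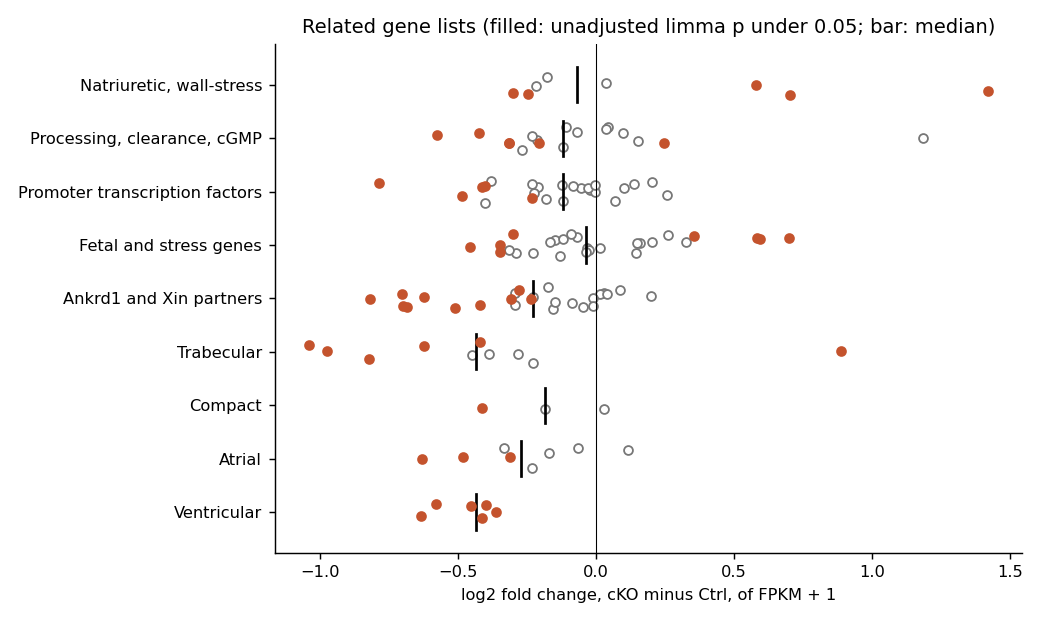
Log2 fold change of FPKM + 1, cKO minus Ctrl, of each tested gene in the natriuretic and wall-stress set and in 8 lists around it. Each circle is a gene, filled where its unadjusted limma p was under 0.05, and the bar is the median of the list. The median of the ventricular genes is -0.43 and that of the trabecular genes is -0.44.

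Nppa and Nppb lie side by side on chromosome 4, with Plod1 and 2510039O18Rik before Nppb and Mad2l2 after Nppa in RefSeq. Mad2l2 was at 4.54, 4.29 and 4.68 FPKM in Ctrl replicates 1, 2 and 3 and at 4.96, 5.75 and 5.81 in cKO replicates 1, 2 and 3. All its cKO values were higher (log2 fold change 0.24, adjusted p = 0.313 from limma), and the highest was in cKO replicate 3, where the peptides were at their lowest of the cKO libraries. Plod1 differed by 0.20 and 2510039O18Rik by 0.22, with an adjusted p of 0.390 and 0.413. Of 7 neighbours tested, 2 were higher and 0 lower at an unadjusted limma p under 0.05, beside 5.57% and 9.43% of all genes. The median was 0.20, and 3 were higher without overlap, beside 7.74% of all genes.

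The genes whose profile over the 6 libraries was most like that of a peptide were found by the root-mean-square difference of centred log2(FPKM + 1) values, as a description. For Nppa, whose own profile had a root-mean-square size of 0.469, these were Ppp1r16b (0.0881), Herpud1 (0.0890), Ctgf (0.0955), Edn1 (0.119) and Acot2 (0.119). Edn1, which encodes endothelin, was at 3.90, 3.95 and 4.41 FPKM in Ctrl replicates 1, 2 and 3 and at 8.20, 8.16 and 3.89 in cKO replicates 1, 2 and 3. Like Nppa it was above its Ctrl range in cKO replicates 1 and 2 and not in cKO replicate 3. For Nppb, with a profile size of 0.838, they were Cth (0.112), Fam129a (0.121), Psph (0.132), Phgdh (0.147) and Cyb5r1 (0.177). Cth, an enzyme gene of cysteine synthesis, was at 1.57, 1.58 and 1.55 FPKM in Ctrl replicates 1, 2 and 3 and at 9.14, 9.15 and 2.99 in cKO replicates 1, 2 and 3. Like Nppb it was above its Ctrl range in all cKO libraries, least so in cKO replicate 3. The difference between Nppa and Nppb themselves was 0.433.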

How the data were processed

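Total RNA of embryonic hearts was depleted of ribosomal RNA and made into strand-specific libraries. The authors deposited 1 table of FPKM per transcript and library; their processing notes name Bowtie2 2.2.8, HISAT2, StringTie 1.3.1, Cuffdiff 2.1.1 and mm9, without roles. Read counts were not used here. Groups were taken from the sample labels. Of 60776 transcript rows, FPKM were summed per gene (26191 genes, after restoring 27 symbols that a spreadsheet had turned into dates). Log2(FPKM + 1) was fitted with limma 3.58.1 (R 4.3.3; lmFit, eBayes with trend) for genes of at least 1 FPKM in at least 3 libraries, with Benjamini-Hochberg adjustment over all 13260 genes. The fit was tested on simulated data. Replicates were labelled as biological replicates. The 4 ratios were compared by exact permutation. The genes and lists were chosen with earlier results of these data known. Named were the 9 genes, up to 4 genes of smallest p per list, the 5 profiles nearest to Nppa and to Nppb, Mrps5 and Tnnt2. Alternatives were the pseudocount (0.1 and 5), the filter, scaling, transcript rows, the replicate block, eBayes without trend, an erythroid covariate, subtraction of the cardiomyocyte marker level and leaving out each library. Sequences came from RefSeq and GENCODE M21 on GRCm38; no coordinate was taken from the table. Proteins are not analysed here. Some items of the lists are not reported here.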

Additional observations from a re-analysis of the deposited data

How the results depend on the processing

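Depth is unknown in these FPKM values, and 3 against 3 libraries cannot give an exact p below 0.1. The same replicate numbers occur in both groups. Deviations of same-numbered libraries from their group means correlated at 0.217, 0.111 and 0.0901, and each library correlated best with its own number, a hint from the data and not from the design. The numbers were not taken as pairs. Blocking on the replicate number gave 2221 genes with an unadjusted and 4 with an adjusted p under 0.05, and the adjusted p was 0.239 for Nppa, 0.111 for Nppb and 0.211 for Ankrd1. The cause of the following shifts was not tested. Of all genes, 1990 had an unadjusted p under 0.05, against 1314 with a mean FPKM of at least 5, 5272 with the cardiomyocyte marker level subtracted and 1216 to 2167 with 1 library left out. An adjusted p under 0.05 was found for 11 genes, against 6 without a filter, 6 without trend, 6 with the erythroid covariate, 4 with the most abundant row only, 880 with the marker level subtracted and 5 to 270 with 1 library left out (121 without cKO replicate 2 and 270 without the library labelled cKO replicate 3). Values did not overlap in 2754 genes, against 1802 with a mean FPKM of at least 5, 5386 with the marker level subtracted and 3583 to 4728 with 1 library left out. Of the 8 natriuretic and wall-stress genes tested, 5 had an unadjusted p under 0.05, against 3 each with median-ratio scaling, quantile normalization, the erythroid covariate and the marker level subtracted, and 1 to 6 with 1 library left out (1, Nppb, without cKO replicate 1; 2 without Ctrl replicate 1 and without cKO replicate 2; 3 without Ctrl replicate 2 or 3). An adjusted p under 0.05 was found for 0 of them, against 3 with the marker level subtracted and 0 to 3 with 1 library left out, the 3 without the library labelled cKO replicate 3. No overlap was found in 3, and in 3 to 6 with 1 library left out. In the lists, 8 genes were higher, against 30 with the marker level subtracted and 4 to 13 with 1 library left out, and 37 were lower, against 22 with the erythroid covariate, 7 with the marker level subtracted and 28 to 45 with 1 library left out. The higher share of all calls was 37.1%, against 49.8% with median-ratio scaling, 47.8% scaled without erythroid genes and 51.3% with the erythroid covariate. The log2 fold change was 0.70 for Nppa (1.02 with the marker level subtracted; 0.54 to 0.99 with 1 library left out), 1.42 for Nppb (1.73; 1.16 to 1.85) and 0.58 for Ankrd1 (0.89; 0.38 to 0.82). With 1 library left out it was -0.31 to -0.16 for Npr3, -0.36 to -0.069 for Corin, -0.25 to -0.082 for Npr1 and -0.41 to -0.20 for Xirp1. With the marker level subtracted it changed sign for Npr1 (0.14), Npr3 (0.065), Corin (0.094), Xirp1 (0.010), Hand2 (0.079), Trim55 (0.011) and Prdm16 (0.13). Npr2 changed sign without Ctrl replicate 2 (-0.13), cKO replicate 1 (-0.062) and cKO replicate 2 (-0.019), in a range of -0.13 to 0.20, and Mycn without Ctrl replicate 2 (-0.028) and cKO replicate 2 (-0.0021), in a range of -0.028 to 0.098. The log2 ratio of Npr1 to Npr3 ran from -0.044 without cKO replicate 1 to 0.23 with 1 library left out.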

Other observations

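Some values in the lists stand out and were picked after they were seen. Ide, which encodes a protease that degrades the atrial peptide, was at 0.0123, 8.80 and 0 FPKM in Ctrl replicates 1, 2 and 3 and at 0, 9.32 and 10.2 in cKO replicates 1, 2 and 3. Its libraries were thus either near 0 or near 9 FPKM in both groups, and its log2 fold change of 1.18 had a standard error of 1.11. Gja5, the connexin gene of trabeculae and atria, was at 28.3, 27.3 and 30.0 FPKM in Ctrl replicates 1, 2 and 3 and at 8.62, 10.5 and 25.6 in cKO replicates 1, 2 and 3, a log2 fold change of -1.04 (adjusted p = 0.214 from limma). Atf3, a stress-induced transcription factor gene, was at 5.39, 4.93 and 5.34 FPKM in Ctrl replicates 1, 2 and 3 and at 12.9, 11.2 and 5.04 in cKO replicates 1, 2 and 3, so that, as for Nppa, only cKO replicates 1 and 2 were above the Ctrl range (log2 fold change 0.70, adjusted p = 0.294 from limma). Rcan1, a calcineurin regulator, was at 33.8, 34.7 and 41.8 FPKM in Ctrl replicates 1, 2 and 3 and at 53.4, 50.5 and 38.7 in cKO replicates 1, 2 and 3 (0.36, adjusted p = 0.287).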
